A study of Mus musculus with 6 samples.

Results

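Iron handling in CD11b-selected brain microglia was followed through 10 genes, which were found by symbol among the 55401 gene rows of the count table. They were chosen by name, with earlier results of these data known. They are the heme oxygenase Hmox1 and the biliverdin reductase Blvrb, the transcription factor Nfe2l2 (the gene of NRF2), the ferritin subunits Fth1 and Ftl1, the iron exporter Slc40a1 (ferroportin), the iron importers Tfrc (transferrin receptor 1) and Slc11a2 (DMT1), and the RNA-binding regulators Aco1 and Ireb2 (IRP1 and IRP2). All 10 passed the filter on low counts and were tested among 19554 genes. MRL/lpr mice, a lupus-prone strain carrying the lpr mutation of Fas, were compared with MRL/mpj mice, which share the MRL background without that mutation. Both strains were untreated and 6 weeks old, and 3 libraries were made from each. The mutation is present in all cells of the animal, so the strains differ outside the microglia as well. The methods describe female mice, but the sex of the sequenced animals was not given. The study describes the microglia as taken from 3 mice per strain, which matches the number of libraries, although the labels do not tie a library to an animal.

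Heme oxygenase opens the heme ring and releases iron, carbon monoxide and biliverdin, which biliverdin reductases turn into bilirubin. Free iron is stored in ferritin, a shell of heavy (Fth1) and light (Ftl1) chains, or leaves the cell through ferroportin. When iron is scarce, IRP1 and IRP2 bind a stem-loop called the iron-responsive element, which blocks translation of mRNAs that carry it in the 5′ UTR and stabilizes the transferrin receptor mRNA that carries it in the 3′ UTR. NRF2 activates Hmox1 and the ferritin genes under oxidative stress, and BACH1 represses them. In the brain, microglia take up heme and iron from damaged cells and red blood cells.

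The iron-responsive elements are shown because they are the sequences by which IRP1 and IRP2 act on members measured here; a gene without a match lacks only the letters searched. They are written from the GENCODE M21 transcripts on GRCm38 as DNA, 5′ to 3′ on the strand of the gene, with the 6 bases of the loop in capitals. The letters searched were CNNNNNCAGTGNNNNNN with the 5 bases on either side of the loop able to pair. They were found in 4 of the 10 genes, against 294 of 21901 coding genes (1.34%) in any part of a coding transcript. The 10 genes were picked for iron handling, and this element is known to act on such mRNAs. The share among them is therefore a description and not a test. The 5′ UTR matches lie at chr19:9982731-9982760 on the plus strand for Fth1, at chr7:45459779-45459808 on the minus strand for Ftl1 and at chr1:45925465-45925494 on the minus strand for Slc40a1, in 4 of 5, 1 of 2 and 1 of 4 annotated coding transcripts. The 4 matches in the 3′ UTR of Tfrc lie on the plus strand at chr16:32631218-32631247, chr16:32631597-32631626, chr16:32631662-32631691 and chr16:32631709-32631738, in 1 of 3 coding transcripts.
Fth1 5′ UTR: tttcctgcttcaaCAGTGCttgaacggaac
Ftl1 5′ UTR: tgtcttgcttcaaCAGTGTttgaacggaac
Slc40a1 5′ UTR: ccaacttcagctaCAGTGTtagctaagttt
Tfrc 3′ UTR site 1: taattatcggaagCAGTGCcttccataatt
Tfrc 3′ UTR site 2: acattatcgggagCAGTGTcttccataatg
Tfrc 3′ UTR site 3: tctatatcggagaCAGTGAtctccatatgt
Tfrc 3′ UTR site 4: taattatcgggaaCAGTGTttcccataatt
A gene count measures the amount of RNA and not the binding of IRP1 or IRP2 to these elements.

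Total counts ran from 45481609 to 49846634 per library. Gene counts of 4 were over-represented (377, 1234 and 254 genes of the first MRL/lpr library had 3, 4 and 5 counts), as if each read pair had been counted 4 times. MRL/lpr replicate 3 stood apart: a single gene, CT010467.1, took 6.38% of its counts against 0.169% to 0.457% in the other libraries. Fas counts overlapped between the strains (282 to 461 in MRL/lpr, 362 to 432 in MRL/mpj), and a count over the whole gene does not separate intact from mutant transcripts. Microglial markers summed to 23738 to 26269 CPM (counts scaled to a common library total) in MRL/lpr and 27529 to 28689 in MRL/mpj, with 3 of 12 lower at an adjusted p under 0.05. Among them, Cx3cr1, named after its values were seen, stood apart in MRL/lpr replicate 2. It was at 2819 CPM there, 226 and 247 in replicates 1 and 3, and 558 to 564 in MRL/mpj. Markers of choroid plexus and ependyma summed to 587 to 593 CPM in MRL/lpr and 1941 to 2099 in MRL/mpj (8 of 10 lower), and those of brain endothelium to 2891 to 3126 and 2512 to 2585 (3 higher and 1 lower of 10). Mitotic genes summed to 223 to 240 and 53.0 to 60.0 CPM (12 of 12 higher), monocyte markers to 283 to 318 and 235 to 259 (6 higher and 1 lower of 9), neutrophil markers to 1497 to 1676 and 1456 to 1493 (4 of 10 higher) and border macrophage markers to 54.4 to 57.4 and 62.9 to 70.1 (2 of 10 lower). Oligodendrocyte markers summed to 217 to 233 CPM in MRL/lpr and 241 to 276 in MRL/mpj (2 of 9 lower), astrocyte markers to 127 to 173 and 206 to 215 (1 of 10 lower) and neuronal markers to 30.1 to 36.3 and 47.9 to 60.7 (2 of 10 lower). Of all tested genes, 11.1% were higher and 9.06% lower at the same threshold. None of the marker lists had a marker at 3 counts or fewer in every library, and their part in the results was not tested. In such bulk libraries, a change in the share of a cell type and a change of RNA per cell cannot be told apart.

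Among the 10 genes, 5 rose in MRL/lpr at an adjusted p under 0.05 (11.1% of all tested genes did) and 1 fell (9.06% of all), so that 6 were called in either direction against 20.2% of all genes. The genes that rose were Hmox1, Slc11a2, Fth1, Nfe2l2 and Ftl1, and the gene that fell was Slc40a1. Tfrc, Blvrb, Aco1 and Ireb2 did not pass the test. The median log2 fold change was 0.28 over the 10 genes and -0.01 over all genes tested. Since the genes were chosen with earlier results of these data known, these comparisons are a description and not an independent result. With the absolute log2 fold change of at least 1 that the study required of its differentially expressed genes, 1 of the 10, Hmox1, was called, against 8.34% of all genes. That call is edgeR's: with DESeq2, which the study used, 0 of the 10 passed the fold minimum. The 3 libraries of each strain did not overlap for 5 genes in the higher direction (19.6% of all genes) and for 3 in the lower (19.4%), the latter being Slc40a1, Aco1 and Ireb2.

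Gene positions are those of GENCODE M21 on GRCm38. Hmox1 (ENSMUSG00000005413, chr8:75093621-75100589, plus strand) encodes the inducible heme oxygenase, the enzyme that frees iron from heme. Its level, in CPM scaled by the trimmed mean of M-values (TMM), was 910, 913 and 719 in MRL/lpr replicates 1, 2 and 3, and 425, 438 and 405 in MRL/mpj. The MRL/lpr libraries all lay above the MRL/mpj libraries, and MRL/lpr replicate 3 was the lowest of its strain. The mean rose from 423 ± 16.7 CPM (SD, n = 3) to 847 ± 111, a 2.01-fold difference with a 95% interval of 1.73 to 2.32 (log2 fold change 1.004, SE 0.09; adjusted p = 7.65e-05, edgeR's quasi-likelihood test). Hmox1 was at the fold minimum itself: its log2 fold change was 0.998 with DESeq2, and 0.95 when MRL/lpr replicate 1 was left out, 0.95 for MRL/lpr replicate 2 and 0.97 for MRL/mpj replicate 3, each below it with an adjusted p of at most 0.00112, and 1.11 without MRL/lpr replicate 3. The constitutive isoenzyme Hmox2, named after its values were seen, did not pass the test at a log2 fold change of 0.00 (95% interval -0.54 to 0.55; adjusted p = 0.993).

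Blvrb (ENSMUSG00000040466, chr7:27447978-27466144, plus strand) encodes a reductase of flavins and biliverdin. Its level was 11.997, 13.3 and 13.3 CPM in MRL/lpr and 11.8, 12.4 and 11.6 CPM in MRL/mpj. The libraries of the strains overlapped, and this was the lowest of the 10 genes. The log2 fold change was 0.11 (95% interval -0.17 to 0.38; adjusted p = 0.615), and its sign turned with scaling to library size alone (-0.02) and with FPKM (-0.02 to -0.01). Blvra, the other biliverdin reductase, stood at -0.34 on the log2 scale (adjusted p = 0.116) and too was named after its values were seen.

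Nfe2l2 (ENSMUSG00000015839, chr2:75675513-75704641, minus strand) encodes NRF2, a transcription factor controlled mainly through the stability of its protein. Its level was 199, 200 and 162 CPM in MRL/lpr and 136, 131 and 137 CPM in MRL/mpj. All MRL/lpr libraries were higher, and replicate 3 again lay below replicates 1 and 2. Nfe2l2 rose 1.39-fold (95% interval 1.21 to 1.596; log2 fold change 0.47, SE 0.09; adjusted p = 0.00481, edgeR). With limma on FPKM, which is not corrected by TMM, its log2 fold change was 0.34 to 0.35 and the adjusted p 0.0771 to 0.116.

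The heavy chain gene Fth1 (ENSMUSG00000024661, chr19:9980598-9985098, plus strand) encodes the ferritin subunit that oxidizes iron before storage. It was measured at 1556, 1471 and 1333 CPM in MRL/lpr and at 951, 960 and 848 CPM in MRL/mpj. The strains did not overlap. Fth1 rose 1.58-fold (95% interval 1.401 to 1.78; log2 fold change 0.66, SE 0.08; adjusted p = 0.000293, edgeR).

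The light chain gene Ftl1 (ENSMUSG00000050708, chr7:45457944-45459884, minus strand) encodes the subunit that helps form the iron core. It was measured at 1568, 1540 and 1547 CPM in MRL/lpr and at 1129, 1171 and 1087 CPM in MRL/mpj. The strains did not overlap, and the MRL/lpr libraries lay within a narrow range, replicate 3 included. Ftl1 rose 1.37-fold (95% interval 1.26 to 1.498; log2 fold change 0.46, SE 0.05; adjusted p = 0.00035, edgeR). Ferritin genes have near-identical processed copies, between which reads can be split. The rows of 2 Fth1 copies held 0.0159% to 0.0534% of the joint counts and those of 3 Ftl1 copies 1.89% to 2.60%, and both genes kept their direction and call with the copies added. Ftl1 also overlaps the annotated microRNA gene Gm22133 by 109 bases on the same strand, a row with 4248 to 5425 counts, and Gm10252 by 355 bases on the opposite strand, with 1367 to 2306 counts. Reads from these overlaps may have been split between the rows, and how strand was counted is not given.

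Slc40a1 (ENSMUSG00000025993, chr1:45908068-45926523, minus strand) encodes ferroportin, the exporter of iron from cells. Its level was 228, 232 and 203 CPM in MRL/lpr and 278, 260 and 283 CPM in MRL/mpj. All MRL/lpr libraries lay below all MRL/mpj libraries. Slc40a1 fell by 0.31 on the log2 scale (SE 0.07; 95% interval -0.47 to -0.15; adjusted p = 0.0151, edgeR), to 0.807 of the MRL/mpj level. The call was lost without MRL/mpj replicate 1 (log2 fold change -0.30, adjusted p = 0.065) and without MRL/mpj replicate 3 (-0.29, adjusted p = 0.0687), and the direction held.

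Slc11a2 (ENSMUSG00000023030, chr15:100387898-100425072, minus strand) encodes DMT1, which carries ferrous iron across the cell surface and out of endosomes. Its level was 93.4, 96.1 and 86.4 CPM in MRL/lpr and 49.3, 50.4 and 53.0 CPM in MRL/mpj. The strains were far apart relative to the spread within each. Slc11a2 rose 1.81-fold (95% interval 1.601 to 2.04; log2 fold change 0.85, SE 0.08; adjusted p = 6.41e-05, edgeR). It overlaps Gm5475 on the opposite strand by 402 bases, a row with 105 to 181 counts in MRL/lpr and 54 to 67 in MRL/mpj, against at least 2521 for Slc11a2.

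Tfrc (ENSMUSG00000022797, chr16:32608920-32632794, plus strand) encodes the receptor through which cells take up transferrin-bound iron, and dividing cells are known to express it strongly. Its level was 94.7, 94.9 and 70.5 CPM in MRL/lpr and 82.8, 82.9 and 83.0 CPM in MRL/mpj. MRL/lpr replicates 1 and 2 lay above the MRL/mpj libraries and replicate 3 below them. The log2 fold change was 0.06 (95% interval -0.19 to 0.32; adjusted p = 0.762). This value rested on MRL/lpr replicate 3: without it the log2 fold change was 0.20 and passed the test (adjusted p = 0.0327), while without replicate 1 or 2 it was -0.00255 and -0.00707, with adjusted p of 0.993 and 0.98. It was also below 0 with scaling to library size alone (-0.05) and in the FPKM fits (-0.07 to -0.06).

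Aco1 (ENSMUSG00000028405, chr4:40143081-40198338, plus strand) encodes IRP1, which doubles as the cytosolic aconitase when it holds an iron-sulfur cluster. Its level was 48.2, 42.9 and 45.7 CPM in MRL/lpr and 51.3, 53.4 and 49.1 CPM in MRL/mpj. The log2 fold change was -0.17 (95% interval -0.36 to 0.02; adjusted p = 0.205). Ireb2 (ENSMUSG00000032293, chr9:54863789-54912530, plus strand) encodes IRP2, which is degraded when iron is plentiful. Its level was 62.0, 64.8 and 54.9 CPM in MRL/lpr and 68.3, 67.2 and 76.9 CPM in MRL/mpj. The log2 fold change was -0.23 (95% interval -0.43 to -0.02; adjusted p = 0.129). For both genes every MRL/lpr library was below every MRL/mpj library, but neither passed the test with TMM scaling. With scaling to library size alone both did (Aco1 -0.29, adjusted p = 0.0428; Ireb2 -0.35, adjusted p = 0.0437), and Aco1 also did with limma on filtered FPKM (adjusted p = 0.0485 and 0.0489). Scaling to library size moved the median log2 fold change of all genes to -0.13, and 36.9% of its 4424 calls were higher in MRL/lpr against 55.1% of 3950 calls with TMM.

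**Figure D1:**
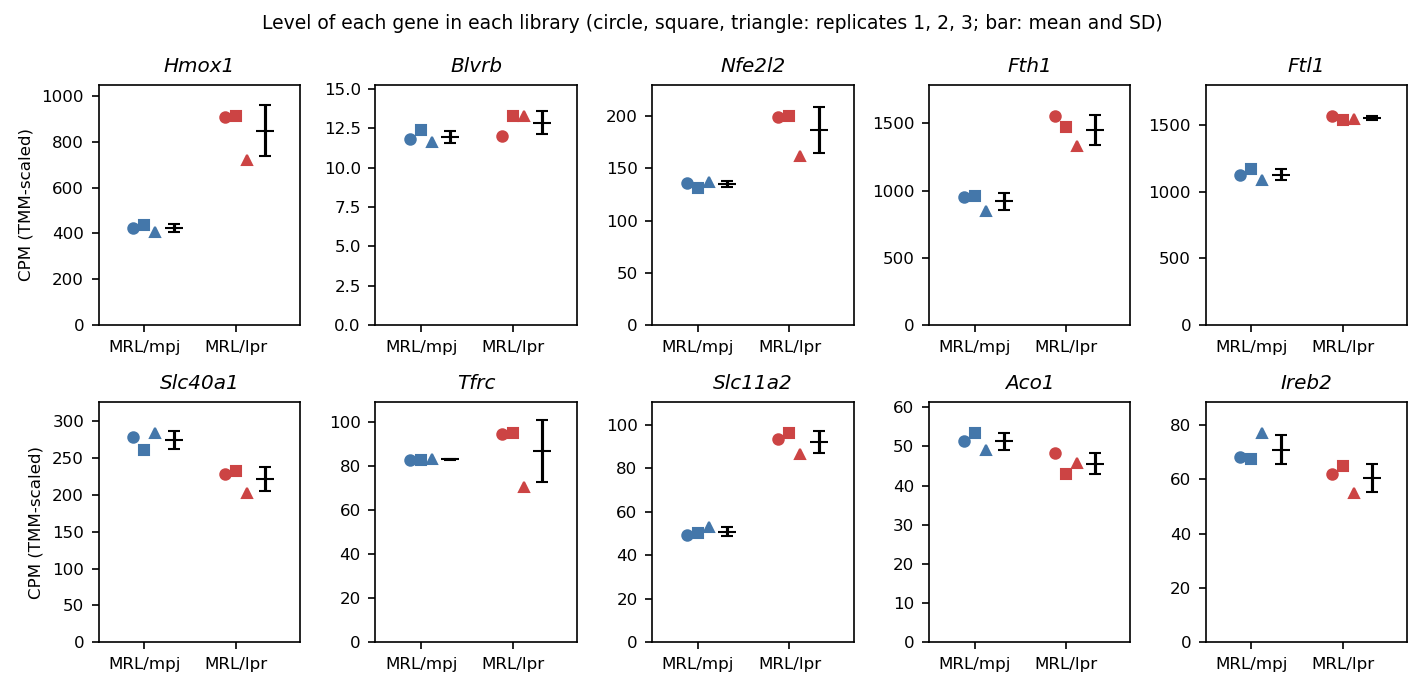
TMM-scaled CPM of the 10 genes (y axes from 0) in each library of MRL/mpj (blue) and MRL/lpr (red); circles, squares and triangles are replicates 1, 2 and 3, and black bars show the mean and SD of 3 libraries. Hmox1, Nfe2l2, Fth1, Ftl1 and Slc11a2 lie higher in all MRL/lpr libraries, Slc40a1, Aco1 and Ireb2 lie lower, and MRL/lpr replicate 3 separates from replicates 1 and 2 for Hmox1, Nfe2l2 and Tfrc.

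**Figure D2:**
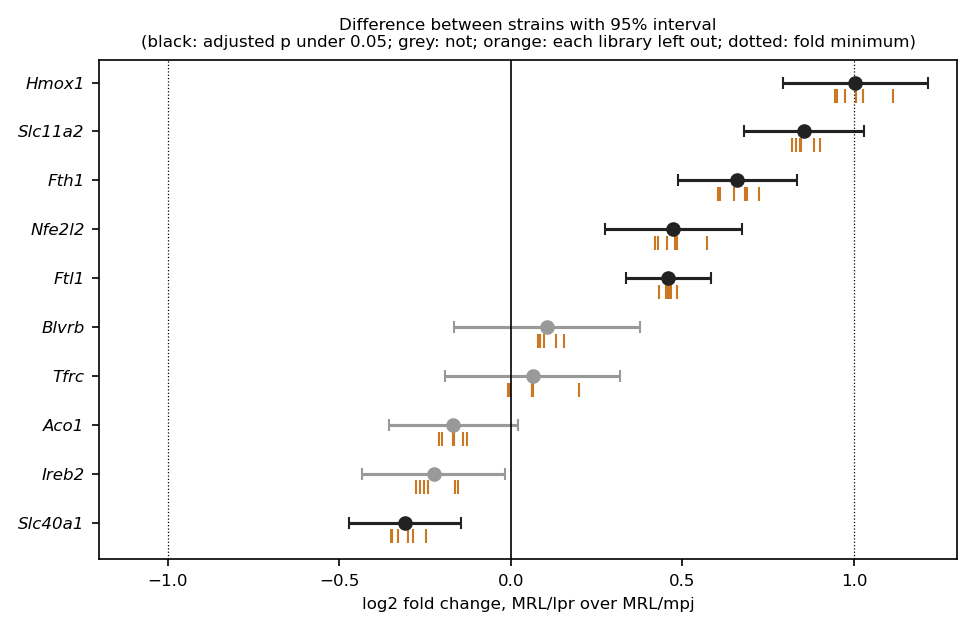
Log2 fold change of MRL/lpr over MRL/mpj (x axis) for each gene with its 95% interval, black where the adjusted p was under 0.05 and grey where not; orange ticks show the 6 values with each library left out and dotted lines the fold minimum of 1. The ticks of Hmox1 lie on both sides of the minimum, and those of Tfrc reach from -0.01 to 0.20.

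Levels of different genes were compared per length, as the deposited FPKM. In MRL/mpj the order ran from Ftl1 at 784 ± 29.2 FPKM (SD, n = 3) through Fth1 at 247 ± 16.7, Hmox1 at 225 ± 8.91, Nfe2l2 at 33.0 ± 0.704, Slc40a1 at 28.3 ± 1.26, Tfrc at 12.5 ± 0.0252, Aco1 at 10.6 ± 0.445, Slc11a2 at 7.44 ± 0.28 and Ireb2 at 6.95 ± 0.524 to Blvrb at 3.98 ± 0.131. Neighbours in that order did not overlap between libraries, except Fth1 with Hmox1 and Slc11a2 with Ireb2. The ferritin chains and Hmox1 were thus among the abundant RNAs of these cells: Ftl1 lay above 99.8% of the genes with a count, Fth1 above 99.6% and Hmox1 above 99.6%, whereas Blvrb lay above 74.4%. The order was the same with TMM-scaled counts per kilobase of annotated exon.

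In MRL/lpr, Hmox1 at 415 ± 66.4 FPKM stood before Fth1 at 359 ± 38.2, with overlapping libraries, and Slc11a2 at 12.4 ± 1.04 stood before Tfrc at 12.02 ± 2.28 and Aco1 at 8.68 ± 0.584. Slc11a2 and Tfrc overlapped in that strain, whereas in MRL/mpj every library had more Tfrc than Slc11a2. The remaining genes kept their places: Ftl1 at 991 ± 35.4, Nfe2l2 at 42.3 ± 6.18, Slc40a1 at 21.02 ± 2.15, Ireb2 at 5.47 ± 0.622 and Blvrb at 3.94 ± 0.196 FPKM.

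**Figure D3:**
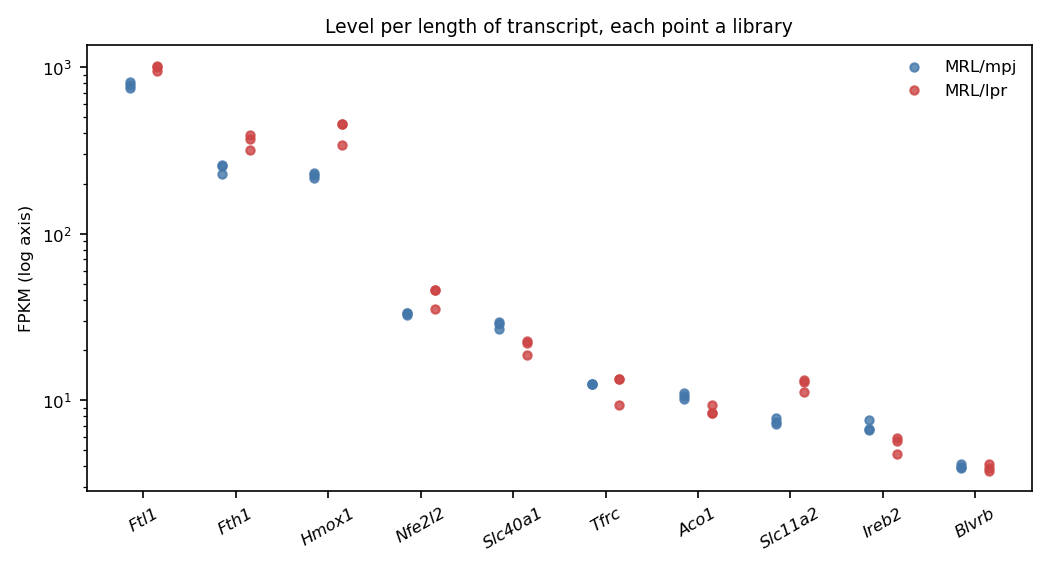
FPKM of each gene (log axis) in the 3 libraries of MRL/mpj (blue) and MRL/lpr (red), ordered by the mean in MRL/mpj. The genes span the range from 3.94 FPKM for Blvrb to 991 for Ftl1 in MRL/lpr, and Slc11a2 reaches the level of Tfrc in MRL/lpr only.

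Ratios of members within a library do not depend on how libraries are scaled to each other. The ratio of Fth1 to Slc40a1 FPKM, storage against export, was 17.8, 16.4 and 17.1 in MRL/lpr and 8.88, 9.59 and 7.77 in MRL/mpj. The ratio of Hmox1 to Nfe2l2 was 9.90, 9.89 and 9.64 in MRL/lpr and 6.79, 7.23 and 6.41 in MRL/mpj, so that MRL/lpr replicate 3, low for both genes, matched its strain in their ratio. The ratio of Slc11a2 to Tfrc, the importers, was 0.96, 0.986 and 1.19 in MRL/lpr and 0.579, 0.592 and 0.62 in MRL/mpj. These 3 ratios did not overlap between strains.

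Within ferritin, the ratio of Fth1 to Ftl1 was 0.383, 0.369 and 0.333 in MRL/lpr and 0.326, 0.317 and 0.301 in MRL/mpj, so the heavy chain gained on the light chain by a small margin. Hmox1 stood at 106 ± 17.6 times the FPKM of Blvrb in MRL/lpr and at 56.4 ± 0.928 times in MRL/mpj. Fth1 stood at 30.2 ± 3.14 times that of Tfrc in MRL/lpr and at 19.8 ± 1.37 times in MRL/mpj. The ratio of Ireb2 to Aco1, 0.632 ± 0.0755 and 0.657 ± 0.0763, overlapped between strains (p = 0.6, exact permutation test, two-sided). For each of the other 6 ratios the exact permutation test gave p = 0.1, which is the smallest it can give with 3 libraries against 3 (0.117 after Benjamini-Hochberg adjustment over the 7 ratios).

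The genes whose pattern over the 6 libraries was most like that of a member were found by Pearson's r of log2 CPM among 9292 genes. For Hmox1 they were Gimap6 (r = 0.9996), Ier3 (0.9995) and the chemokine gene Ccl3 (0.9992), and 262 genes had an r over 0.98. For Slc11a2 they were Gm45221, the interferon-induced gene Rsad2 and Thbs1, the gene of thrombospondin 1 (each 0.9992), with 397 genes over 0.98. For Fth1 they were Sertad1 (0.9992), Rnf130 (0.9979) and the co-chaperone gene Dnaja4 (0.9979), with 139 genes over 0.98. These correlations describe 6 libraries that fall into 2 strains and share their depth, and they are given without a test.

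The other genes of iron and heme metabolism were taken from 5 lists of 125 genes, of which 119 were tested; Tfr2, Timd2, Ftmt, Hamp, Hjv and Tmprss6 had too few counts. Of the 119, 14 rose (11.1% of all genes did) and 12 fell (9.06% of all), with a median log2 fold change of -0.03. The lists as a whole were thus called at shares close to those of all genes in both directions.

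Among 19 tested genes of iron uptake and release, 2 rose (11.1% of all genes did) and 2 fell (9.06% of all; median -0.06). Cp, the gene of ceruloplasmin, the ferroxidase that works with ferroportin, was at 102, 104 and 99.9 CPM in MRL/lpr and 50.5, 47.1 and 50.03 CPM in MRL/mpj. It rose 2.07-fold (log2 fold change 1.05, SE 0.07; adjusted p = 1.08e-05, edgeR), while the gene of its partner ferroportin fell as given above. Trf, the gene of transferrin, rose from a mean of 739 to 993 CPM (log2 fold change 0.43, adjusted p = 0.00274). Slc22a17, a receptor for the siderophore-binding protein lipocalin 2, fell by 0.74 on the log2 scale (adjusted p = 0.000164), and the metalloreductase gene Steap2 fell by 1.34 (adjusted p = 0.012) at a low level of 1.41 to 6.19 CPM. Without MRL/mpj replicate 1 the Steap2 call was lost (adjusted p = 0.0582), and its log2 fold change was -0.27 with limma on log2(FPKM + 1).

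In the list for iron storage and its control, 1 of 20 tested genes rose and 2 fell (median 0.05), against 11.1% and 9.06% of all genes. Bmp6, which induces hepcidin in the liver, fell from a mean of 10.4 to 5.80 CPM (log2 fold change -0.85, adjusted p = 0.00355), and Hfe, the hemochromatosis gene, from 102 to 72.7 CPM (-0.49, adjusted p = 0.003). Nedd4l, a ubiquitin ligase gene, rose from 24.4 to 35.5 CPM (0.54, adjusted p = 0.00289); with limma on FPKM its log2 fold change was 0.24 to 0.39 and the call was lost (adjusted p 0.109 to 0.166).

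Of 21 genes of heme synthesis, transport and breakdown, 3 rose and 1 fell (median -0.06), against 11.1% and 9.06% of all genes. Bach1, the gene of the heme-sensing repressor of Hmox1, was at 254, 241 and 222 CPM in MRL/lpr and 156, 160 and 169 CPM in MRL/mpj and rose 1.48-fold (log2 fold change 0.56, SE 0.07; adjusted p = 0.000502, edgeR). The heme synthesis gene Alad rose from 18.6 to 31.1 CPM (0.74, adjusted p = 0.00211). Alas2, the erythroid form of the first enzyme of heme synthesis, rose from 8.58 to 17.4 CPM (1.02, adjusted p = 0.0445), with MRL/lpr replicate 3 highest at 26.3 CPM against 13.8 and 12.004 in replicates 1 and 2. Erythrocyte markers, Alas2 among them, summed to 686 to 1136 CPM in MRL/lpr and 613 to 675 in MRL/mpj. Of the 6 tested, only Alas2 was called (11.1% of all genes rose). The part of these markers in the result was not tested. Alas2 lost its call without any one MRL/mpj library (adjusted p 0.0822 without replicate 1, 0.131 without replicate 2 and 0.144 without replicate 3), and its log2 fold change was 0.59 without MRL/lpr replicate 3. Without a count filter Alas2 lost its call too (adjusted p = 0.0809, edgeR). Urod, a later enzyme of heme synthesis, fell by 0.32 (adjusted p = 0.0472) and lost its call without any one of the 6 libraries (adjusted p 0.0724 without MRL/lpr replicate 3 to 0.15 without MRL/mpj replicate 2), with DESeq2 (0.0664), without a count filter (0.0774) and with at least 10 counts in each library (0.0501).

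Among 25 genes of mitochondrial iron and iron-sulfur assembly, 1 rose and 2 fell (median -0.13), against 11.1% and 9.06% of all genes. The ferredoxin reductase gene Fdxr rose by 0.51 on the log2 scale (adjusted p = 0.0101), and the iron-sulfur assembly genes Nfu1 and Ciao1 fell by 0.50 and 0.38 (adjusted p 0.0153 and 0.0233). Nfu1 lost its call without MRL/lpr replicate 2 or MRL/mpj replicates 1 or 3 (adjusted p 0.0533 to 0.0712), and Ciao1 without any one library but MRL/lpr replicate 3 (0.0639 to 0.0829). Transcripts of the mitochondrial genome took 3.06% to 3.49% of counts in MRL/lpr and 5.84% to 6.38% in MRL/mpj.

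In the list of NRF2 regulators and targets, 7 of 34 genes rose and 5 fell (median 0.11), against 11.1% and 9.06% of all genes. The small MAF gene Mafk, whose protein pairs with NRF2 or BACH1 on DNA, was at 481, 487 and 451 CPM in MRL/lpr and 229, 224 and 225 CPM in MRL/mpj and rose 2.09-fold (log2 fold change 1.07, SE 0.06; adjusted p = 3.38e-06, edgeR). Sqstm1, the gene of the autophagy receptor p62 that binds the NRF2 inhibitor KEAP1, was at 717, 710 and 684 CPM in MRL/lpr and 428, 436 and 415 CPM in MRL/mpj and rose 1.65-fold (0.72, SE 0.06; adjusted p = 2.34e-05, edgeR). The sulfiredoxin gene Srxn1 rose from 2.76, 1.0001 and 4.84 CPM in MRL/mpj to 11.1, 23.3 and 23.1 CPM in MRL/lpr, a log2 fold change of 2.74 (SE 0.63; adjusted p = 0.0342) with a wide spread within both strains. The call on Srxn1 was lost without MRL/lpr replicate 2 (adjusted p = 0.0868), MRL/lpr replicate 3 (0.1) or MRL/mpj replicate 1 (0.12). It was lost without a count filter as well (adjusted p = 0.0956, edgeR). The epoxide hydrolase gene Ephx1 fell by 0.67 (adjusted p = 0.00119).

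The remaining called genes of that list, named after their values were seen, were Txnrd1, Mafg, Pgd and G6pdx, which rose by 0.34 to 0.45, and Gstp1, Prdx1, Tkt and Cat, which fell by 0.54, 0.37, 0.31 and 0.27. Txnrd1 and Prdx1 act in the thioredoxin system, and Pgd, G6pdx and Tkt are enzymes of the pentose phosphate pathway, so that members of both stood on either side. Other well-known NRF2 targets did not pass the test, again named after their values were seen: Nqo1 had a log2 fold change of -0.49 (adjusted p = 0.301), Gclm of -0.17 (0.374), Gclc of 0.09 (0.564) and Slc7a11 of 0.34 (0.16).

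**Figure D4:**
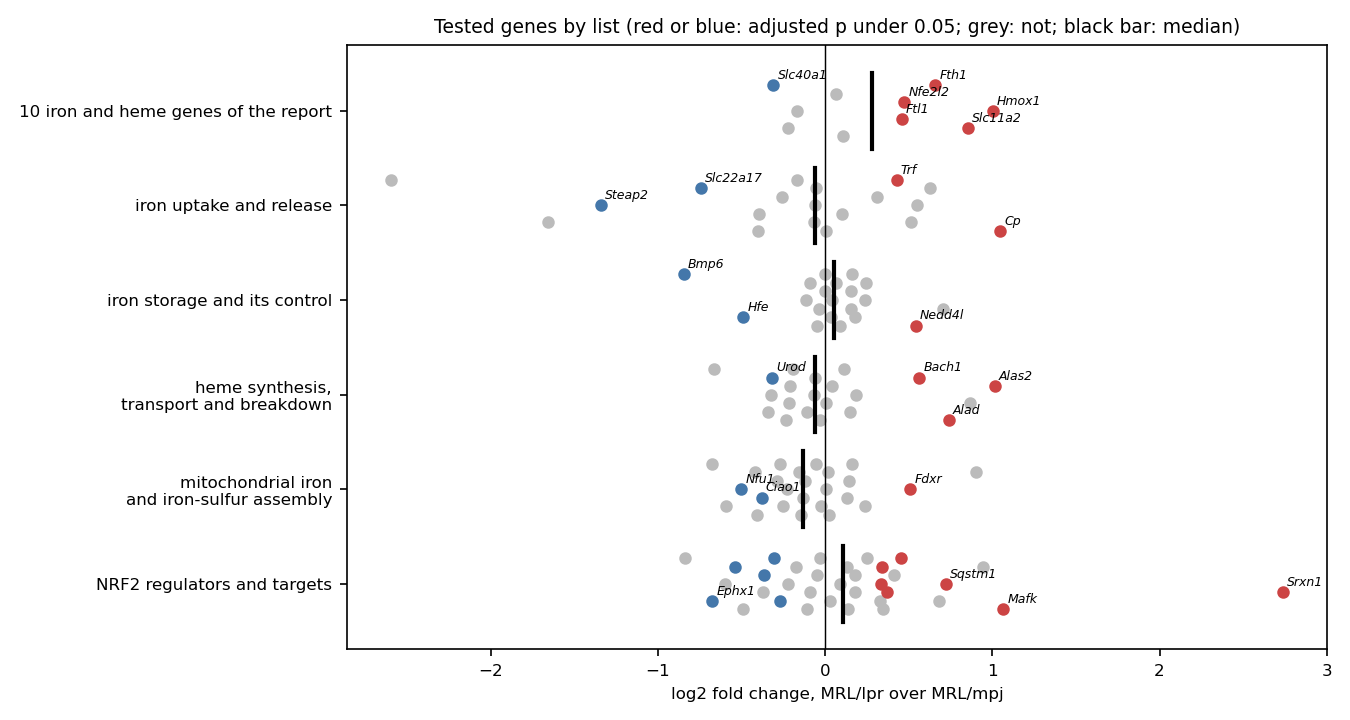
Log2 fold change of MRL/lpr over MRL/mpj (x axis) for the 10 genes and the tested genes of the 5 lists, each point a gene, red or blue where the adjusted p was under 0.05 and grey where not, with a black bar at the median. The medians are 0.28 for the 10 genes and between -0.13 and 0.11 for the lists, and each list holds called genes on both sides of 0.

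Promoter windows from 250 bases before to 50 bases after the start of transcription were searched on both strands for the core of the antioxidant response element, TGACNNNGC, the DNA motif that NRF2 and small MAF proteins bind. RefSeq windows on GRCm38.p6 were at hand for 7 of the 10 genes, and Hmox1, Slc40a1 and Slc11a2 had no entry. The letters were found in 1 of the 10 windows of those 7 genes, some of which have several, and in 4071 of 32851 windows overall (12.4%). Sequence farther from the start site was not searched, and a gene without a match lacks only these letters in its windows. The match stands in a window of Nfe2l2 itself, starting 240 bases before the start site. It is shown with the flanking bases at chr2:75704885-75704913, on the minus strand of GRCm38.p6, with the matching letters in capitals.
Nfe2l2 promoter: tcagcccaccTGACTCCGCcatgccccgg
The match is a description of the sequence and says nothing of binding.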

How the data were processed

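The authors isolated CD11b-positive cells from collagenase-digested brain with a Percoll gradient and magnetic beads. Per the labels, ribosomal RNA was removed and stranded libraries were made, while the methods describe purified mRNA. The submitters' processing notes name cutadapt 1.9.3, HISAT2 2.0.4, Cuffdiff 2.2.1, Cufflinks and GRCm38; the counting tool, its strand setting and the annotation are not given in the sources used here. The authors deposited raw counts of each gene as whole numbers, and FPKM values per library (scaled to gene length and depth). GENCODE M21 gave symbols for 55141 of 55401 rows, and rows without one held at most 0.0369% of a library.

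Counts were filtered (edgeR 4.0.16 in R 4.3.3, filterByExpr with a minimum count of 10 and total of 15), scaled with TMM and tested with robust quasi-likelihood fits and Benjamini-Hochberg adjustment over 19554 genes (common biological coefficient of variation 0.26). "Rose" and "fell" mean an adjusted p under 0.05. The steps were tested on simulated data. Replicates differed by more than sampling noise (8.63 to 16.1 times the counting variance, where counts worth 4 apiece would give 4).

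The alternatives were DESeq2 1.42.0, other scalings and count filters, non-robust dispersions, counts divided by 4, limma 3.58.1 on log2 FPKM (pseudocounts 0.1 and 1), a replicate block, ferritin summed with its copies and each library left out. The members and lists were chosen with earlier results of these data known. All 10 members are named, with up to 4 called genes per list by largest change (strains not overlapping, at least 10 counts in each library) and the 3 nearest patterns of the 3 most changed members. Any other gene is marked where it is named.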

Additional observations from a re-analysis of the deposited data

How the results depend on the processing

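Hmox1, Slc11a2, Fth1 and Ftl1 kept their direction and their side of the threshold under all 19 alternatives, with log2 fold changes of 0.87 to 1.11, 0.66 to 0.90, 0.54 to 0.72 and 0.34 to 0.48. With DESeq2, scaling to library size alone, limma on FPKM at either pseudocount or without a filter, and the replicate block, 0 of the 10 genes passed the fold minimum, Hmox1 lying at 0.87 to 0.998; with each library left out, 0 to 1 did. The number of members that fell was 3 with library size alone, 2 with limma on filtered FPKM at either pseudocount and 0 with the replicate block, and 0 to 1 with each library left out. Pathway genes that fell numbered 23 with library size alone, 20 with limma on filtered FPKM at either pseudocount, and 6 to 14 with each library left out; those that rose numbered 8 with limma on unfiltered FPKM. The share of all tested genes that fell moved as well, from 9.06% to 14.3%, to 11.8% and 11.9%, and to 5.75% to 9.64% in the same order, and the share that rose from 11.1% to 4.51%. Tfrc turned to -0.0540 with library size alone, to -0.0700 with limma on log2(FPKM + 0.1), filtered or not, to -0.0639 with log2(FPKM + 1), and spanned -0.00707 to 0.197 with each library left out. Blvrb turned to -0.0189 with library size alone, to -0.0172 with limma at the lower pseudocount, filtered or not, and to -0.0140 at the higher. Among the named list genes, Urod lost its call in 10 of the 19 alternatives, Alas2 in 8, Ciao1 in 6 and Srxn1 in 5. Steap2 lost it in 4, Nedd4l and Nfu1 in 3 each and Fdxr in 1. The cause of these changes was not tested. Over all tested genes, deviations of same-numbered libraries from their strain means were not correlated (r of -0.041, -0.020 and -0.033). An r over all genes cannot show whether some genes share a replicate effect, so pairing by number was left undecided. With the replicate block, Slc40a1 stood at -0.31 with an adjusted p of 0.0514 (edgeR). Calls over all genes were then 1746 higher and 1319 lower against 2178 and 1772 without the block. The smallest member count was 555, for Blvrb; whether depth or the number of libraries limits a member was not tested.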
